A study of Mus musculus with 6 samples.

Results

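The genes described here are 10 enzymes that recycle purine bases and nucleosides or break them down: Hprt, Aprt, Adk, Pnp, Ada, Gda, Ampd2, Nt5e, Nt5c2 and Xdh. They were chosen by gene symbol and role, with earlier results of these data known but by no threshold on a measured value, and all 10 were found among the 24346 symbols of the expression tables. mRNA was measured by RNA sequencing in 2 cell lines with 3 RNA samples each, giving 6 samples. The parental line, CT26.mMR1, is the mouse colorectal tumour line CT26 transduced with a retrovirus that overexpresses mouse MR1, the molecule that presents small metabolites to mucosal-associated invariant T (MAIT) cells. The mutant line, M8, is 1 clone obtained by limiting dilution after CT26.mMR1 cells were treated with the chemical mutagen N-ethyl-N-nitrosourea (ENU), and it carries the same MR1 overexpression. The titles of all 6 samples carry the tag cl9, which the labels do not explain. M8 was kept from a screen for mutants that stimulated a MAIT cell reporter more strongly than the parental cells and that showed more MR1 on the cell surface. The question put to the data was how the mRNA of these enzymes differed between M8 and the parental line. As M8 is a single clone, the treatment, the screen and the choice of clone cannot be told apart in any difference between the lines. The study calls the samples of a line biological replicates, but the labels do not say whether they came from separate cultures, and p-values measure only the spread between these samples, which may in part be technical.

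Purine nucleotides are made de novo from small precursors or by salvage, in which a free base or a nucleoside is turned back into a nucleotide. Breakdown runs the other way: nucleotidases remove the phosphate, deaminases convert adenosine to inosine, AMP to IMP and guanine to xanthine, purine nucleoside phosphorylase releases the base from inosine and guanosine, and xanthine dehydrogenase oxidises hypoxanthine and xanthine to uric acid. Hprt and xanthine dehydrogenase both use hypoxanthine, and dividing cells rely on both salvage and de novo synthesis. Some MR1-restricted T cells have been described to recognise an adenine-derived compound.

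Values are given in FPKM, mapped fragments scaled by transcript length and by library size, which allows levels of different genes to be set side by side. Differences between the lines were tested with limma on log2(FPKM + 1) over the 10597 genes with a mean of at least 1 FPKM. A gene was called changed at an adjusted p below 0.1, and fold changes below are on that log2(FPKM + 1) scale, which understates the change of low genes. Of all genes tested, 2250 (21.2%) were called higher and 1745 (16.5%) lower in M8. The balance of the 2 directions moved with scaling, to 1658 higher and 2209 lower after rescaling to TPM and to 1470 higher and 2769 lower after upper-quartile scaling.

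The libraries differed somewhat in depth. Estimated from the smallest steps between values of low genes, the parental libraries held 21.4 to 24.4 M reads and the M8 libraries 17.7 to 19.7 M, without overlap. The part of depth in the differences below was not tested, but 8 members were estimated to hold at least 91.3 reads in every library. Samples of 1 line correlated over genes with r of 0.994 to 0.995 (values of log2(FPKM + 1)), and samples of different lines with r of 0.989 to 0.992. Of 10 markers of colon epithelium, 2 (Krt18 and Krt20) reached a mean of 1 FPKM, and Epcam, Cdh1, Krt19 and Cdx2 were listed at 0 in all 6 samples. The summed level of this marker list was 39.7 to 56.4 FPKM in the parental line and 47.5 to 49.4 in M8. Of 8 fibroblast markers 5 reached that mean, with a sum of 606 to 639 FPKM in the parental line and 586 to 616 in M8, mostly from Col1a2. Pdgfrb was called higher in M8 (20.6 to 22.2 FPKM in the parental line, 24.2 to 26.4 in M8), and Pdgfra (3.14 to 3.63 and 2.09 to 2.63) and Dcn (16.6 to 20.8 and 11.9 to 15.7) were called lower. Of 10 leukocyte markers 2 (Cd14 and Cd68) did, with a sum of 19.2 to 21.2 and 18.8 to 21.1 FPKM and 4 of the list at 0 throughout, and no endothelial marker of 6 did (sums of 0.235 to 0.338 and 0.235 to 0.625 FPKM). Cd14 was called higher in M8 (15.4 to 16.4 FPKM in the parental line, 17.3 to 18.7 in M8). Krt20 (15.1 to 19.8 and 10.8 to 12.7) and Cd68 (3.77 to 4.90 and 1.39 to 2.46) were called lower, and the part of such markers in the results was not tested. In bulk RNA of a cell line, fewer cells that express a gene and less of its RNA per cell cannot be told apart. Mr1 mRNA was 1139, 1057 and 1046 FPKM in the parental samples and 1095, 1035 and 1034 in M8. Its log2 fold change of -0.035 did not pass the test (limma adjusted p = 0.615). Nor did that of B2m, which encodes the partner chain of MR1 (-0.055, limma adjusted p = 0.316). B2m was at 1949, 1968 and 1954 FPKM in the parental samples and at 1878, 1849.5 and 1923 in M8. Its M8 samples thus lay wholly below the parental samples, as for 20.4% of all genes tested.

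Of the 10 members, 8 passed the filter on low values, each at 3.05 FPKM or more in every sample, and Gda and Nt5e did not. In M8, 4 of these 8 were called higher (Pnp, Xdh, Ampd2 and Aprt), against 21.2% of all genes tested. Ada was the 1 member called lower, against 16.5% of all genes, and Hprt, Adk and Nt5c2 did not pass the test. The M8 samples lay wholly above the parental samples for 5 of the 8 members, Nt5c2 being the fifth, where 24.8% of all genes tested did so, and wholly below for none, where 20.4% of all genes did. The median log2 fold change of the 8 was 0.11, beside 0.0069 over all genes tested. All changes were modest: no member passed the threshold with a change of at least 1.5-fold.

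**Figure D1:**
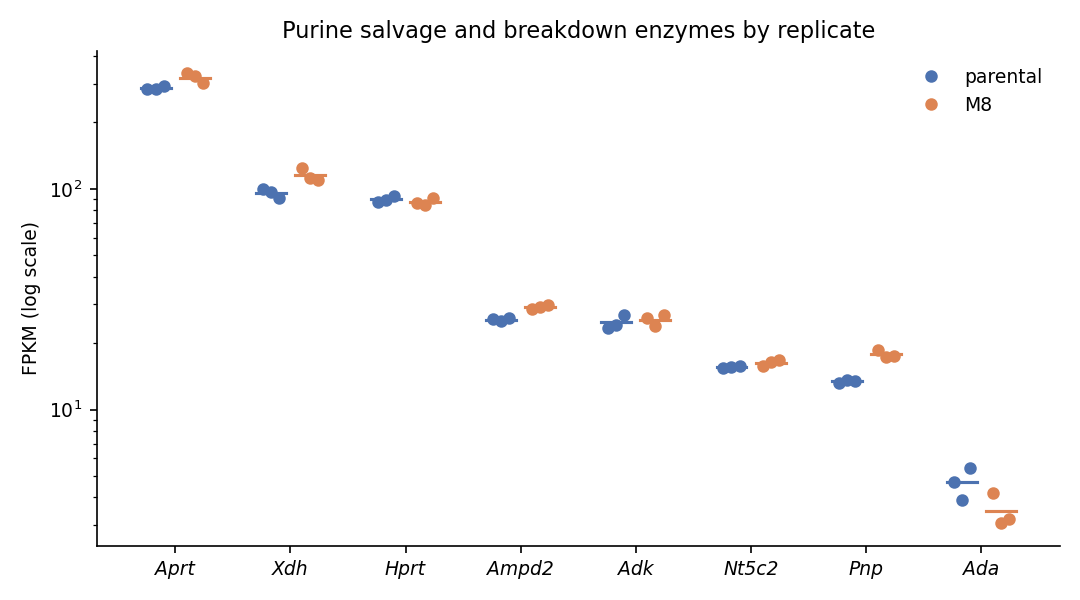
Level in FPKM, on a log axis, of the 8 purine salvage and breakdown enzymes that passed the filter on low values, with 1 point per sample (3 parental CT26.mMR1 and 3 M8) and a line at each mean. Aprt was the most abundant in every sample, at 284 to 334 FPKM, and Ada the least, at 3.05 to 5.43.

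The levels spanned from 334 FPKM to 0. In the parental line the order of the means was Aprt, Xdh, Hprt, Ampd2, Adk, Nt5c2, Pnp and Ada, followed by Nt5e and Gda near 0. Xdh and Hprt overlapped in their samples, as did Ampd2 and Adk, so their order is not settled by these samples. In M8 the order was the same except that Pnp stood above Nt5c2, and no neighbours among the 8 tested members overlapped. The lowest M8 value of Pnp was 17.4 FPKM and the highest of Nt5c2 was 16.8, whereas in the parental line the highest Pnp value of 13.6 lay under the lowest Nt5c2 value of 15.4.

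The sequences around the RefSeq starts of the members are described for the members as a group. Whether they bear on the 4 calls in the same direction was not tested. RefSeq windows on GRCm38.p6, from 250 bases before to 50 after the start, were at hand for 9 of the 10 members, all but Xdh. They are shown for Pnp, Aprt and Ampd2, which were called higher, for Hprt, which was not called, and for Nt5e, whose mRNA was at or near 0. Capitals mark every match, on either strand, to the GC box GGGCGG (read as CCGCCC on the other strand) or to CCAAT. The Pnp window is chr14:50944053-50944352 on the plus strand, that of Aprt chr8:122576858-122577157 on the minus strand and that of Ampd2 chr3:108085353-108085652 on the minus strand. The Hprt window is chrX:52987828-52988127 and the Nt5e window chr9:88327359-88327658, both on the plus strand. RefSeq and GENCODE place some starts differently: the windows of Pnp, Ampd2 and Nt5e lie inside the GENCODE gene spans given with each gene in the following paragraphs.
Pnp: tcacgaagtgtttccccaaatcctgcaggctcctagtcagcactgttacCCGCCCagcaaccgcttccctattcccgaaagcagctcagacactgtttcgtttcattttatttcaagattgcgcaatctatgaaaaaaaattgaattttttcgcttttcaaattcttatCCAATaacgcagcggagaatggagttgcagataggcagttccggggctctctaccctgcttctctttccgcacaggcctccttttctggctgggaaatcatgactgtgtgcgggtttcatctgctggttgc
Aprt: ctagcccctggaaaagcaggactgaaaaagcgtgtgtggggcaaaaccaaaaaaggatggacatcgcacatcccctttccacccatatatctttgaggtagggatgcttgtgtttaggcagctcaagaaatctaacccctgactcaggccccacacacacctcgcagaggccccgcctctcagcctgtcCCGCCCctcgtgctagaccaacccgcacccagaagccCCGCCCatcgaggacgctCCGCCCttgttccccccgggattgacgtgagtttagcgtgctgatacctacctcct
Ampd2: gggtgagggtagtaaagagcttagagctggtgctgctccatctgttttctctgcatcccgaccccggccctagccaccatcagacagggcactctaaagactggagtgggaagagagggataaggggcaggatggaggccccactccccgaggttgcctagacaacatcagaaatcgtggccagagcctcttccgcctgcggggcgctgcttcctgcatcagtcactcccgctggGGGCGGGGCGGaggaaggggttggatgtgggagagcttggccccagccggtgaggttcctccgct
Hprt: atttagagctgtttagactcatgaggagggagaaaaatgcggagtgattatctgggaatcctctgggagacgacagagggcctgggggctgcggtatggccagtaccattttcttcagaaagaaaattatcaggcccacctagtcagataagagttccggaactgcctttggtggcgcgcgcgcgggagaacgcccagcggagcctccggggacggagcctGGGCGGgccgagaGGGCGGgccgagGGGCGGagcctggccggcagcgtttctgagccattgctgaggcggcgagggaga
Nt5e: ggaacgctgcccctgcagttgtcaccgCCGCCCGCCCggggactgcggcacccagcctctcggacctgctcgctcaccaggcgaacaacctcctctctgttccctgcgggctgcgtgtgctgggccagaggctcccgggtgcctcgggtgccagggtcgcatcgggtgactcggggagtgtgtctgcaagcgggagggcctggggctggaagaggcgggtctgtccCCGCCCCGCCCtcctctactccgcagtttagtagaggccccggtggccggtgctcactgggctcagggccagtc
The Pnp window held 1 GC box and 1 CCAAT and had 47.3% G and C. The Aprt window (57.7% G and C) and the Hprt window (61% G and C) held 3 GC boxes each. The Ampd2 window (62.3% G and C) held 2 GC boxes that overlap each other. The Nt5e window held 4, in overlapping pairs, and had the highest share of G and C of these windows, 71%. RefSeq lists several, partly overlapping windows for some members (7 for Nt5c2, 2 each for Adk and Ampd2), 17 in all. Counted by window, 13 of the 17 (76.5%) held a GC box, beside 35.6% of 32817 RefSeq windows of that length, and 6 (35.3%) held CCAAT, beside 37.4%. The 32817 windows were not matched to those of the members for G and C or for expression. The E-box CACGTG occurred in 1 of the 17, a window of Nt5c2, beside 7.15% of all windows, while the CRE sequence TGACGTCA and TATAAA were found in none, beside 1.79% and 13.6%. Counted by member, with several windows giving more chances of a match, 8 of 9 members had a GC box and 5 of 9 CCAAT in at least 1 window. These are matches of letters in a window, and GC boxes were found in windows of members called higher, called lower, not called and near 0.

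The phosphoribosyltransferases attach a free base to phosphoribosyl pyrophosphate. Aprt, which salvages adenine, is on GRCm38 at chr8:122574635-122576909, minus strand, in 5 exons. Its level was 284, 284 and 292 FPKM in the parental samples and 334, 323 and 302 in M8. All M8 samples lay above all parental samples, but the third M8 sample did so by a small margin. The mean rose from 287 ± 5.0 to 320 ± 16.6 FPKM (SD, n = 3 per line, limma on all genes), a log2 fold change of 0.16 with a standard error of 0.045 (limma adjusted p = 0.0299). The call did not hold without M8 replicate 1 (log2 fold change 0.12, limma adjusted p = 0.122) or without M8 replicate 2 (0.15, limma adjusted p = 0.101), nor under upper-quartile scaling (0.095, limma adjusted p = 0.106) or quantile normalisation (0.060, limma adjusted p = 0.266).

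Hprt salvages hypoxanthine and guanine, and its loss makes cells resistant to thioguanine. It lies at chrX:52988137-53021659, plus strand, in 9 exons. It was at 86.9, 89.3 and 92.6 FPKM in the parental samples and at 86.6, 84.5 and 91.0 in M8, and the lines overlapped. The log2 fold change was -0.037 with a 95% confidence interval of -0.14 to 0.061 (limma adjusted p = 0.556). Under quantile normalisation alone it was called lower in M8 (-0.13, limma adjusted p = 0.0489).

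Adk, adenosine kinase, returns adenosine to AMP and lies at chr14:21052574-21448569, plus strand. The parental samples had 23.5, 24.2 and 26.8 FPKM and the M8 samples 25.9, 24.0 and 26.9. The lines overlapped almost fully, and the log2 fold change of 0.041 (95% confidence interval -0.098 to 0.18) did not pass the test (limma adjusted p = 0.649).

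The nucleotidases take the phosphate off nucleotides. Nt5c2 is the cytosolic enzyme that prefers IMP and GMP, at chr19:46883317-47015153, minus strand. It was at 15.4, 15.5 and 15.7 FPKM in the parental samples and at 15.8, 16.4 and 16.8 in M8. Every M8 sample lay above every parental sample, yet the difference was small and did not pass the test (log2 fold change 0.067, 95% confidence interval -0.037 to 0.17, limma adjusted p = 0.308). Its opposite-strand neighbour Ina, which shares 13.1% of the 50-base windows of the Nt5c2 transcript, was listed at 0 in all 6 samples.

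Nt5e encodes CD73, the surface enzyme that makes adenosine from AMP outside the cell, and lies at chr9:88327197-88372092, plus strand. It was listed at 0.0118, 0 and 0.0219 FPKM in the parental samples and at 0 in all 3 M8 samples. These values correspond to an estimated 2.13 reads at most. With 3 reads as the limit that a count of 0 allows, which stands for 0.0309 to 0.0351 FPKM in the parental libraries and 0.0381 to 0.0423 in M8, both lines were at or under the floor, and no difference was detectable at this depth. This limit covers counting error only.

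The deaminases remove an amino group from adenosine, guanine or AMP. Ampd2, the AMP deaminase that makes IMP, lies at chr3:108074062-108086651, minus strand, in 18 exons. Its level was 25.6, 25.1 and 25.9 FPKM in the parental samples and 28.4, 29.2 and 29.6 in M8, with a clear gap between the lines. The mean rose from 25.5 ± 0.443 to 29.1 ± 0.617 FPKM (SD, n = 3 per line, limma on all genes), with a log2 fold change of 0.18, a standard error of 0.042 and an adjusted p of 0.0126 in limma. The antisense gene Gm12500 overlaps it and was not analysed here.

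Ada, adenosine deaminase, whose loss causes severe immunodeficiency, lies at chr2:163726584-163750239, minus strand. It was the lowest of the tested members, at 4.71, 3.88 and 5.43 FPKM in the parental samples and 4.17, 3.05 and 3.20 in M8. The first M8 sample stood above the second parental sample, so the lines overlapped. The mean fell from 4.68 ± 0.777 to 3.48 ± 0.610 FPKM (SD, n = 3 per line, limma on all genes), a log2 fold change of -0.34 with a standard error of 0.12 (limma adjusted p = 0.0640). The estimated reads behind it were 140 to 223 per parental library and 91.3 to 139 per M8 library. Its coefficient of variation was 16.6% and 17.6%, against 1.15% to 7.01% in the parental line and 2.12% to 6.65% in M8 for the other tested members. The call was lost on leaving out parental replicate 1 (limma adjusted p = 0.121), parental replicate 3 (0.177), M8 replicate 2 (0.183) or M8 replicate 3 (0.162), with quantile normalisation (0.141) and with no filter on low values (0.161). The log2 fold change stayed negative in all 15 refits with other settings or without 1 library, from -0.45 to -0.25.

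Gda, guanine deaminase, lies at chr19:21391307-21473445, minus strand. It was listed at 0 in 5 of the 6 samples and at 0.00803 FPKM in parental replicate 2, an estimated 0.934 read. Both lines were under the 3-read floor, which was 0.0227 to 0.0258 FPKM in the parental libraries and 0.0280 to 0.0312 in M8, so a difference was not detectable.

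Pnp, purine nucleoside phosphorylase, splits inosine and guanosine into base and ribose phosphate and so supplies the bases that Hprt and Xdh use. It lies at chr14:50931082-50965237, plus strand. Its level was 13.2, 13.6 and 13.5 FPKM in the parental samples and 18.6, 17.4 and 17.5 in M8, and the gap between the lines was far wider than the spread within either. The mean rose from 13.4 ± 0.200 to 17.8 ± 0.661 FPKM (SD, n = 3 per line, limma on all genes), 1.32 times as high. The log2 fold change of 0.38 had a standard error of 0.049 and a 95% confidence interval of 0.27 to 0.49 (limma adjusted p = 0.000962). Its log2 fold change was the highest of the members and above that of 97.3% of all genes tested. Reads could be assigned differently here, since 28.7% of the 50-base windows of the Pnp transcript also occur in other transcripts, among them 15.1% in Pnp2, the neighbouring copy on the same strand, and 23.1% in Gm49342, which was not analysed here. Pnp2 itself was at 0.0389, 0.164 and 0 FPKM in the parental samples and at 0.133, 0.0504 and 0.276 in M8, an estimated 7.30 reads at most.

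Xdh, xanthine dehydrogenase, carries out the final oxidations to uric acid and lies at chr17:73883895-73950196, minus strand, in 36 exons. Its level was 99.97, 96.5 and 90.7 FPKM in the parental samples and 124, 112 and 109.5 in M8. No M8 sample reached down to the parental range. The mean rose from 95.7 ± 4.71 to 115 ± 7.67 FPKM (SD, n = 3 per line, limma on all genes), with a log2 fold change of 0.27, a standard error of 0.056 and an adjusted p of 0.00812 in limma. None of the 50-base windows of the Xdh transcript occurred in a transcript of another gene.

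Pnp, Xdh and Ampd2 passed the test in each of 16 refits with another pseudocount, filter, scaling, variance model, replicate block or left-out library. Their log2 fold changes ranged from 0.32 to 0.40, 0.17 to 0.30 and 0.12 to 0.20, and their largest adjusted p in limma was 0.0073, 0.0657 and 0.0616. Taken singly, with 3 samples against 3, an exact two-sided permutation test cannot give less than p = 0.1. The exact test gave that value for Aprt, Pnp, Ampd2, Nt5c2 and Xdh, and p = 0.2 for Ada, 0.4 for Hprt and 0.7 for Adk.

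**Figure D2:**
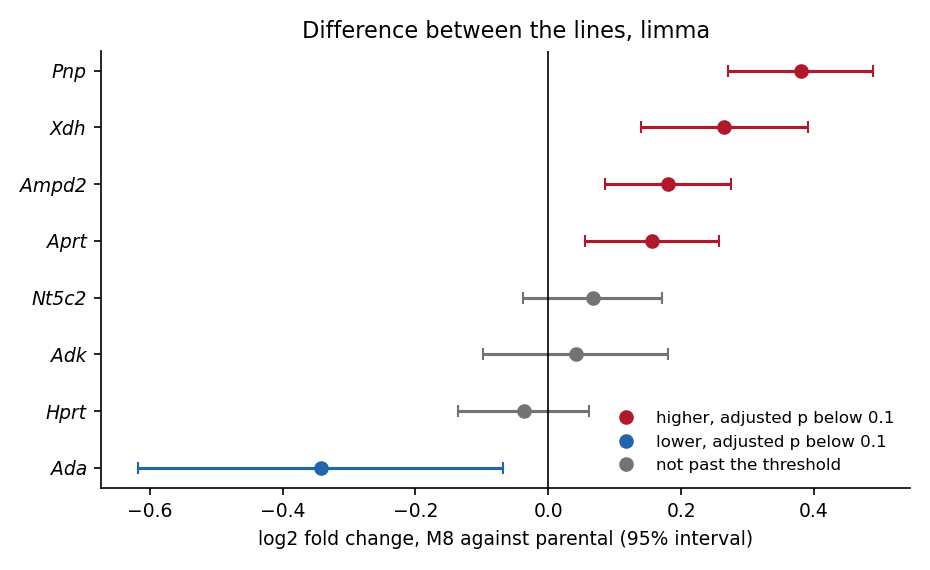
Log2 fold change, M8 against parental on the log2(FPKM + 1) scale, of the 8 tested members (points) with 95% confidence intervals from limma (bars), coloured by call. The intervals of Pnp, Xdh, Ampd2 and Aprt lie above 0, that of Ada lies below it, and those of Hprt, Adk and Nt5c2 include it.

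The summed level of the 10 members, which depends on the scaling between libraries, was 553, 552 and 563 FPKM in the parental samples and 638, 610 and 596 in M8. Shares of this sum and ratios within a sample do not depend on that scaling, and are given without a test. Aprt made up 50.6% to 53.0% of the sum over all samples, and its share overlapped between the lines. Divided by the same sum, 7.91% of all genes tested lay wholly above the parental samples in M8 and 43.6% wholly below. The share of Pnp was 2.39%, 2.47% and 2.39% in the parental samples and 2.91%, 2.84% and 2.93% in M8. The share of Xdh was higher in every M8 sample, at 19.4%, 18.4% and 18.4% against 18.1%, 17.5% and 16.1%. The share of Ampd2 overlapped (4.54% to 4.64% in the parental line, 4.46% to 4.97% in M8), as did that of Nt5c2 (2.78% to 2.81% and 2.48% to 2.81%) and that of Adk (4.25% to 4.76% and 3.93% to 4.51%). The share of Hprt was lower in every M8 sample, at 13.6%, 13.8% and 15.3% against 15.7%, 16.2% and 16.5%. The share of Ada, too, was lower in every M8 sample, at 0.655%, 0.501% and 0.536% against 0.853%, 0.703% and 0.965%.

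The summed salvage enzymes Hprt, Aprt and Adk stood to the summed other members as 2.48, 2.57 and 2.72 in the parental samples and as 2.34, 2.42 and 2.38 in M8. Every M8 sample thus lay below every parental sample in this ratio, for which no share over all genes can be given. Aprt is the largest part of the salvage sum and Xdh the largest part of the other sum. Their ratio overlapped between the lines (2.84 to 3.22 in the parental line, 2.70 to 2.87 in M8). Of the salvage members, Aprt was called higher in limma, and Hprt and Adk were not called. Relative to Hprt, a denominator chosen after its values were seen, Pnp was at 0.145 to 0.153 in the parental line and 0.192 to 0.214 in M8. Xdh stood to Hprt as 0.979 to 1.15 in the parental line and as 1.203 to 1.43 in M8. The ratio of Aprt to Hprt was 3.16 to 3.26 in the parental samples and 3.32 to 3.86 in M8. Ampd2 and Nt5c2 gave no overlap either, at 0.280 to 0.295 against 0.326 to 0.346 and at 0.170 to 0.177 against 0.183 to 0.194. Adk to Hprt overlapped between the lines, as did Ada to Hprt. Of all other genes tested, 25.6% likewise lay wholly above the parental samples in their ratio to Hprt and 13.7% wholly below. The mean of Hprt itself was slightly lower in M8 without passing the test, which raises every such ratio there.

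**Figure D3:**
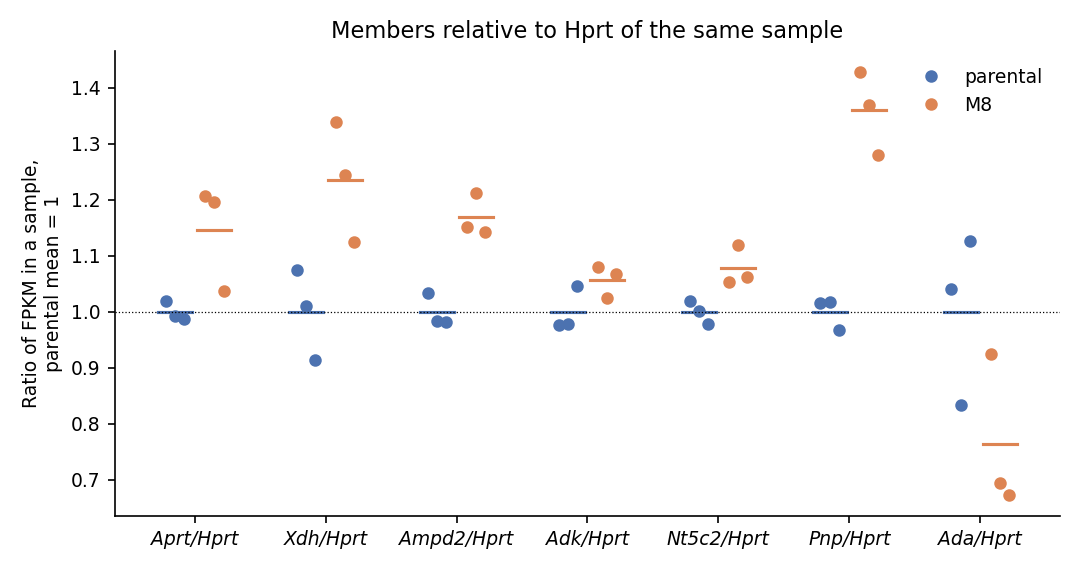
FPKM of 7 members over that of Hprt in the same sample, each divided by the mean ratio of the parental samples (no unit), with 1 point per sample (3 parental, 3 M8) and a line at each mean. All M8 points lie above all parental points for Aprt, Xdh, Ampd2, Nt5c2 and Pnp, beside 25.6% of all other genes tested, and the lines overlap for Adk and Ada.

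For the setting of these enzymes, 67 other purine genes were listed by role, of which 65 were in the tables and 32 were tested. Of these 32, 8 were called higher and 8 lower in M8, beside 21.2% and 16.5% of all genes, and their median log2 fold change was 0.013. The split was 6 higher and 10 lower with TPM, 7 and 9 with quantile normalisation, and 6 and 11 with upper-quartile scaling. The other 33 lay under the filter, 6 of them at 0 in every sample.

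Among the deaminases and interconversion enzymes, 8 were tested, none was called higher and 3 were called lower in limma, beside 21.2% and 16.5% of all genes tested, and at an unadjusted p below 0.05 the counts were the same. Ampd3, the AMP deaminase isoform prominent in red blood cells, fell from 7.6 ± 0.366 to 6.27 ± 0.639 FPKM (log2 fold change -0.25, limma adjusted p = 0.0383), while its relative Ampd2 rose. Adssl1, the muscle isoform of adenylosuccinate synthase, fell from 12.2 ± 1.26 to 9.18 ± 0.576 FPKM (-0.37, limma adjusted p = 0.00723). Adal, a relative of adenosine deaminase, was also called lower (-0.19, limma adjusted p = 0.0549).

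Of the 7 nucleotidases tested, 2 were called higher and 1 lower, beside the same shares of all genes. Nt5m, the mitochondrial deoxynucleotidase, rose to 12.7 ± 1.23 FPKM in M8 (log2 fold change 0.32, limma adjusted p = 0.0130). Nt5c3b, a cytosolic nucleotidase, was called higher (0.20, limma adjusted p = 0.0215) and Cant1, a calcium-activated nucleotidase, lower (-0.24, limma adjusted p = 0.00901). Entpd1, which encodes CD39, the surface enzyme upstream of CD73, was listed at 0 in 5 samples and at 0.0104 FPKM in parental replicate 2. None of the 4 adenosine receptors passed the filter.

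Kinases went both ways, with 3 of 7 tested called higher and 2 lower, beside 21.2% and 16.5% of all genes. The adenylate kinases balance ATP, ADP and AMP, and of these Ak5 rose from 18.6 ± 1.40 to 25 ± 1.37 FPKM (log2 fold change 0.41, limma adjusted p = 0.00218). Ak6 was called higher as well (0.31, limma adjusted p = 0.00320), whereas Ak1, the main cytosolic form in muscle, fell from 59.4 ± 0.144 to 53.3 ± 1.09 FPKM (-0.15, limma adjusted p = 0.0158). The remaining roles held few tested genes. The 3 pool-cleaning enzymes tested, which remove damaged or surplus nucleotides, were called higher, beside 21.2% of all genes tested: Itpa, which hydrolyses ITP (0.34, limma adjusted p = 0.00262), Nudt1, which hydrolyses oxidised dGTP (0.18, limma adjusted p = 0.0483), and the dNTP hydrolase Samhd1 (0.10, limma adjusted p = 0.0979). Slc29a1, the equilibrative nucleoside transporter ENT1, was the 1 of 3 transporters tested to be called (-0.15, limma adjusted p = 0.05003). Aox1, an aldehyde oxidase that uses the same molybdenum cofactor as Xdh, fell from 9.68 ± 0.645 to 7.74 ± 0.253 FPKM (-0.29, limma adjusted p = 0.00940). Urate oxidase, Uox, was listed at 0 in 5 samples and at 0.0255 FPKM in parental replicate 2.

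All 10 genes of de novo purine synthesis on the list were tested. In M8, 5 were called higher and none lower, beside 21.2% and 16.5% of all genes tested, with a median log2 fold change of 0.049. By an unadjusted p below 0.05 in limma the counts were also 5 and 0, while the number called lower became 1 with TPM, 2 with quantile normalisation and 3 with upper-quartile scaling. Ppat, which commits phosphoribosyl pyrophosphate to the pathway, rose from 9.79 ± 0.491 to 11.6 ± 0.0816 FPKM (log2 fold change 0.23, limma adjusted p = 0.0130). Atic, which closes the ring to IMP, rose by 0.23 (limma adjusted p = 0.0103) and Gart by 0.20 (limma adjusted p = 0.00664). The genes that make phosphoribosyl pyrophosphate, the substrate shared with Hprt and Aprt, did not pass the test. Prps1 was at 39.4 ± 2.0 FPKM in the parental line and 37.4 ± 0.692 in M8 (limma adjusted p = 0.282). Prps2 was at 16.8 ± 0.752 and 15.8 ± 0.174 (limma adjusted p = 0.216). The M8 samples of Prps2 lay wholly below its parental samples, as for 20.4% of all genes tested.

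**Figure D4:**
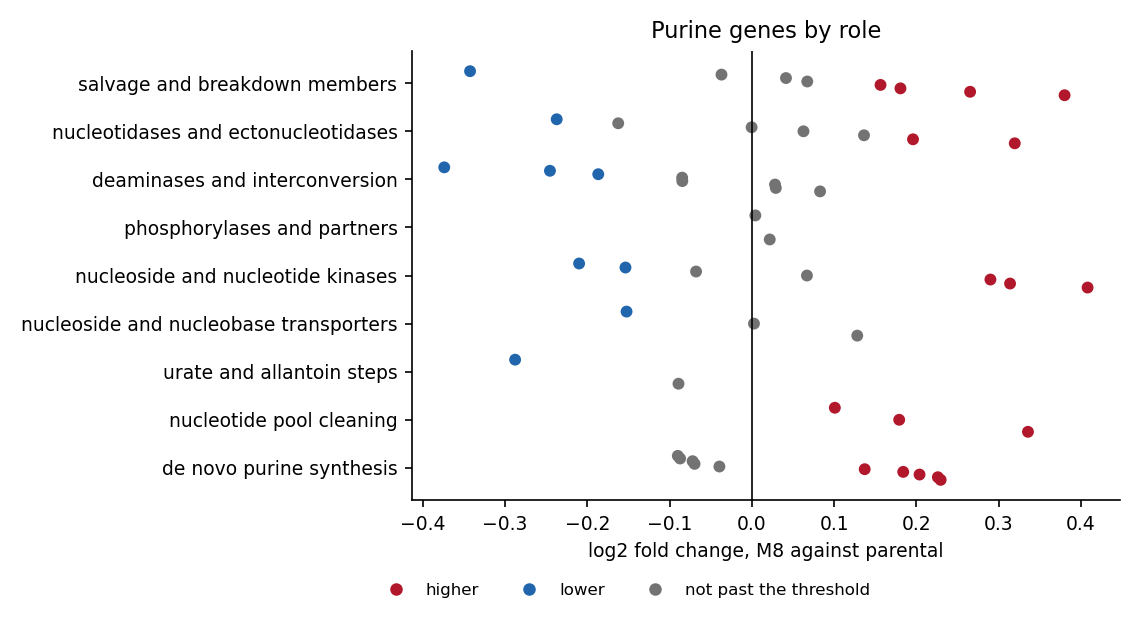
Log2 fold change of each tested purine gene, M8 against parental on the log2(FPKM + 1) scale, 1 point per gene, grouped by role and coloured by its call in limma at an adjusted p below 0.1 (the height of a point within its role has no meaning). The members run from -0.34 (Ada) to 0.38 (Pnp), and the de novo genes from -0.090 to 0.23.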

How the data were processed

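RNA was taken from 3 samples each of CT26.mMR1 and M8 cells, and libraries were made with a stranded mRNA kit. The authors deposited 1 table of FPKM values per sample. Per the submitters' processing notes, mm10 was the genome, with TopHat2 2.1.1, Bowtie2 2.2.8, SAMtools 0.1.18 and Cuffdiff 2.2.1 as tools. The gene annotation is not given in the sources used here. The authors tested read counts, which were not used here.

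FPKM values were tested in R 4.3.3 with limma 3.58.1 (lmFit, eBayes with trend, two-sided) on log2(FPKM + 1). Genes had to reach a mean of 1 FPKM over the 6 samples, and p-values were adjusted by Benjamini-Hochberg over all genes tested. The code was tested on simulated data. Tables were made with Python 3.11.15, pandas 2.3.3 and matplotlib 3.10.9.

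FPKM tables hold no counts. Relative depth was read from the steps between values below 0.3 FPKM, and estimated reads follow from it, so they are approximate. Positions and shared 50-base windows come from GENCODE on GRCm38, the same build as mm10, and promoter windows from RefSeq.

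Besides markers from the cell type lists and genes that overlap members, the genes named were all members, Mr1 and B2m, and at most 3 called genes per role by size of change. A gene that this rule would name is not reported here. Ak1, Entpd1, Uox, Prps1, Prps2, Pnp2 and Ina were added after their values were seen. Members and lists were chosen with earlier results of these data known. The alternatives tried were pseudocounts of 0.1 and 0.5, no filter or a mean of 5 FPKM, 4 other scalings, eBayes without trend, stricter thresholds, a replicate block and leaving out each library.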

Additional observations from a re-analysis of the deposited data

How the results depend on the processing

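The counts of members called higher stayed between 3 and 4 under every alternative but a minimum fold of 1.5, at which members, other purine genes and de novo genes had 0 higher and members and other purine genes 0 lower, and all genes 42 higher and 74 lower. The count of 1 member lower, Ada, became 0 with no filter, with a mean of 5 FPKM (Ada was then under the filter) and at an adjusted p below 0.05, and ranged from 0 to 1 on leaving out 1 library. With quantile normalisation the 1 lower member was Hprt (-0.13), and Ada was not called. Of de novo genes, 1 was lower with TPM, 2 with quantile normalisation, 3 with upper-quartile scaling, and 0 to 1 on leaving out 1 library (1 without parental replicate 1). Over all genes, upper-quartile scaling gave 1470 higher and 2769 lower, and leaving out 1 library gave 1157 to 1672 lower, the lowest without M8 replicate 1. The log2 fold change of Adk turned to -0.018 under upper-quartile scaling, without a call in either direction. The causes were not tested, other than the filter itself.

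Samples with the same replicate number did not deviate together (r of 0.10, -0.11 and -0.033), beside r of -0.13 to 0.18 for samples with different numbers. These values do not show whether samples with the same number were handled together. With the replicate block, 2171 genes were higher and 1688 lower, members 4 and 1, other purine genes 8 and 8, and de novo genes 4 and 0. With 3 samples per line and no read counts used, low members such as Ada are measured least precisely, and Gda and Nt5e cannot be compared.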
